A study of Homo sapiens with 18 samples.

Results

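Small nuclear RNA (snRNA) genes encode short, stable RNAs that work in the nucleus. The RefSeq gene table of GRCh38.p14 lists 154 genes of this class among 59098 genes of all kinds on chromosomes 1 to 22 and X. Every gene that the table classes as snRNA was taken, whatever its name or signal. Positions of 149 of them lie on the chromosome itself, and the other 5 fall on a further sequence of the table and were left out. By their symbols the 149 comprise 4 U1 genes, 17 variant U1 genes (RNVU1), 3 U2, 2 U4, 5 U5, 5 U6 and 1 each of U11, U12, U4atac, U6atac, U7 and 7SK. The remaining members are 28 snaR genes and 79 genes with a locus number as their only name, here called untyped. The 42 genes of a U type or 7SK are described first.

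The study mapped chromatin in A549, an established human lung adenocarcinoma line, by CUT&Tag. In this assay an antibody guides a transposase to the chromatin it binds, and the DNA cut there is sequenced. Unmodified cells (WT), cells in which YTHDF1 was knocked out (YTHDF1-KO) and cells given siRNA against ARID1A (siARID1A) were each examined with an antibody against YTHDF1 and with one against ARID1A, in 2 libraries per antibody and condition. All 12 of these peak lists were used, and the 6 IgG samples were not analysed here, nor was the knockout combined with the knockdown. YTHDF1 binds RNA that carries N6-methyladenosine, and ARID1A is a DNA-binding part of the BAF (SWI/SNF) remodeller, which moves nucleosomes. The labels do not say whether the knockout is a single clone, which siRNA was used, or whether replicates were separate cultures. Spread between replicates may therefore be technical. The titles name no cells given a control siRNA, so loss of ARID1A and the siRNA treatment itself cannot be told apart. Peak lists hold no protein level, so the loss of either protein was not checked.

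Most snRNA genes are transcribed by RNA polymerase II from compact promoters built from a distal element, often with an octamer bound by POU2F1, and a proximal sequence element bound by the SNAP complex. The U6, U6atac and 7SK genes use a related promoter with a TATA box and RNA polymerase III. U1, U2, U4, U5 and U6 form the major spliceosome, U11, U12, U4atac and U6atac serve the minor one, U7 directs the 3′ end processing of histone transcripts, and 7SK holds the elongation factor P-TEFb in an inactive form.

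The anti-ARID1A lists held 71271 to 106882 peaks covering 99.0 to 266 Mb, and the anti-YTHDF1 lists 40562 to 59632 peaks covering 49.3 to 89.6 Mb. The second WT anti-YTHDF1 list was the shortest. A gene was counted as held by a list when a peak overlapped the gene or the 1 kb to either side of it. The strength of a peak is given as its percentile by total signal within its own list, from 0 for the weakest to 100 for the strongest, and the sequencing depth behind the lists is unknown. Of 5 epithelial marker genes, 4 had a peak at a gene end in all 6 anti-ARID1A lists (KRT8, KRT18, KRT19 and CDH1), and PTPRC of blood cells had none in any of the 12, but a peak is no measure of expression.

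Letters of these loci were read from RefSeq promoter windows (GRCh38.p14) of neighbouring genes, since none of the 149 members has a window of its own in that table. Such windows were looked for only at the 42 genes of a U type or 7SK, not at snaR or untyped members. In all 12 windows overlapped the surroundings of 9 of the 42. RNU7-1 is shown because it was held by all 12 lists and lies whole inside the window of C12orf57, at chr12:6943816-6943878 on the plus strand. Its capitals mark the start of the Sm-type site, where the ring of Sm and Lsm proteins assembles on U7 RNA. A short stretch beside RNU4-2, at chr12:120292114-120292143 on the plus strand and inside the annotated gene SIRT4, and the window beside RNU6-9, at chr19:893188-893437 on the minus strand and belonging to MED16, are shown for the octamer in capitals. The flank of RNU2-63P, at chr2:88016548-88016797 on the plus strand, joins 2 windows of LOC105374852. It is shown for a proximal-element core followed by the octamer, both in capitals and both read on the opposite strand.
RNU7-1: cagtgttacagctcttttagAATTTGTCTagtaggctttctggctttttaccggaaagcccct
RNU4-2 flank: tggggaatcttATGCAAATcaacgtgacgt
RNU6-9 flank: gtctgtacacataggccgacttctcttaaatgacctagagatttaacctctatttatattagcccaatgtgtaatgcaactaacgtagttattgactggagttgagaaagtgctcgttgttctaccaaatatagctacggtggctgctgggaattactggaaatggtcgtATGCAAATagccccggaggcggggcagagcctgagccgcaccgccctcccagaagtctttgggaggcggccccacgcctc
RNU2-63P flank: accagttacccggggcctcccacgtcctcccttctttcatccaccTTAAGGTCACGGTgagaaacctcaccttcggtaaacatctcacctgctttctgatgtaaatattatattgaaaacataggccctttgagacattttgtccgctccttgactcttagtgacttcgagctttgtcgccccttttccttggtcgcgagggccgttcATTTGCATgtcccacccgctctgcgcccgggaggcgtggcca

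On both strands 3 motifs were searched, namely the octamer ATGCAAAT, the proximal-element core (ACCG, 7 unspecified bases and AA) and TATATA. The octamer lay 222 bp from RNU4-2, 217 bp from RNU6-9 and 209 bp from RNU2-63P. Of all 35116 windows of 300 bp in the table, 1.77% hold it. The proximal-element core lay 46 bp from RNU2-63P and 36 bp from the variant U1 gene RNVU1-2A, and 4.68% of all windows hold it. TATATA, found in 3.99% of all windows, was in none of the 12. The windows at RN7SK, RNU6-2 and RNU6-9, of types that use a TATA box, end before the gene begins. Bases next to these genes were thus not searched, and the absence of TATATA decides nothing about them. None of the motifs was found in the windows at RN7SK, RNU12, RNU6-2, RNU7-1 and RNVU1-6, most of which cover only a part of the flank. RNU2-63P, a pseudogene by its symbol, was singled out after these matches were seen.

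All 4 U1 genes, which encode the RNA that recognises the 5′ splice site, were held by all 6 anti-ARID1A lists. All lie on chromosome 1 between 16514122 and 16896143 and are 164 bp long. RNU1-1 stood at percentiles of 88.6 to 94.8 with anti-ARID1A (median 91.9). With anti-YTHDF1 it stood at 25.9 to 89.3 (median 80.8) in 5 lists and was missing from the second WT list. RNU1-3 (68.5 to 95.7, median 89.9) and RNU1-4 (28.0 to 95.1, median 81.3) were in all 6 anti-YTHDF1 lists. RNU1-2 was in 4, missing from the second WT and the first YTHDF1-KO list. U1 thus had peaks in every library with either antibody, and its anti-YTHDF1 peaks were spread over a wider range of ranks.

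The variant U1 genes, near copies of U1 scattered over chromosome 1 from 120850819 to 149637013, were less even. With anti-ARID1A 14 of 17 were held by all 6 lists, RNVU1-1 by 5, RNVU1-17 by 1 and RNVU1-19 by none. With anti-YTHDF1 only RNVU1-14 and RNVU1-7 were in all 6, and RNVU1-4, RNVU1-1, RNVU1-17 and RNVU1-19 were in none. RNVU1-14 stood at 84.4 to 95.2 with anti-ARID1A (median 89.8) and at 34.6 to 88.8 with anti-YTHDF1 (median 72.8). RNVU1-4, missing with anti-YTHDF1, stood at 31.9 to 70.1 with anti-ARID1A (median 62.3). RNVU1-6 stood at 86.9 to 94.2 in all 6 anti-ARID1A lists, and at 9.21 and 18.2 in the 2 anti-YTHDF1 lists that held it. Between these lay RNVU1-28 in 5 anti-YTHDF1 lists, RNVU1-18, RNVU1-2A and RNVU1-31 in 4, RNVU1-15 and RNVU1-3 in 3, RNVU1-27 and RNVU1-30 in 2, and RNVU1-26 and RNVU1-8 in 1. The labels do not state how reads that match several copies were placed, so values are uncertain between copies of U1, of U2 and of snaR.

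U2 pairs with the branch point, and RNU2-1 had the highest mean percentile of all the U types. RNU2-1 (chromosome 17, 43233790 to 43233977) stood at 98.9 to 99.8 in the anti-ARID1A lists (median 99.6) and at 99.8 to 99.9 in the anti-YTHDF1 lists (median 99.9). Its peak was 6787 bp wide at the median. RNU2-2 (chromosome 11, 62841619 to 62841809) was also in all 12 lists. It stood at 96.1 to 99.2 with anti-ARID1A (median 98.1) and at 57.1 to 96.8 with anti-YTHDF1 (median 95.4), lowest in the second YTHDF1-KO list. It overlaps an end of the protein-coding gene WDR74. For this gene and the other 7 within 1 kb of such an end, named with their distances below, a peak of the snRNA gene and a peak of the neighbour cannot be told apart. RNU2-63P was in all 6 anti-ARID1A lists (92.1 to 97.9, median 94.3) and in 4 with anti-YTHDF1 (21.7 to 88.8, median 72.1).

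RNU2-1 lies in a tandem array, and 13 untyped members lie within 150 kb of it, between 43239921 and 43368087. All 13 were held by all 12 lists. They are 189 to 192 bp long, against 188 bp for RNU2-1, and their windows form 11 separate loci. Their median peak widths ran from 2075 to 15050 bp, and their percentiles from 53.6 to 99.99. Of the 10 members of highest mean percentile, 4 were in this array (LOC124904142, LOC124904141, LOC124904145 and LOC124904137), RNU2-1 was the seventh and the other 5 were snaR genes. A wide peak collects more total signal, and several members of the array fell on a single peak.

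U4 and U6 enter the spliceosome as a pair, and U5 holds the exons together. All 12 of these genes were in all 6 anti-ARID1A lists, and none was in all 6 anti-YTHDF1 lists. RNU4-2 (chromosome 12, 120291759 to 120291903) stood at 93.7 to 98.1 with anti-ARID1A (median 95.5) and at 73.6 to 94.4 in 5 anti-YTHDF1 lists (median 82.5). An end of SIRT4 lies within RNU4-2. RNU4-1 has a window that overlaps that of RNU4-2 and shared its peak in every anti-ARID1A list. Both were missing from the second WT anti-YTHDF1 list, and RNU4-1 also from the second YTHDF1-KO list.

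The 5 U5 genes split by antibody. RNU5A-1 (chromosome 15, 65296051 to 65296167) was in 5 anti-YTHDF1 lists at 75.1 to 94.5 (median 79.2), beside 81.9 to 95.0 with anti-ARID1A (median 90.5). RNU5B-1 was in 5 as well, at 6.43 to 93.6 (median 87.5), and both were missing from the first YTHDF1-KO list. RNU5E-1 was in 4 lists and RNU5D-1 in 2. RNU5F-1 (chromosome 1, 44721785 to 44721902) was in no anti-YTHDF1 list, while with anti-ARID1A it stood at 96.2 and 96.1 in WT, 83.9 and 97.7 in YTHDF1-KO and 46.6 and 57.3 in siARID1A cells. The siARID1A values of RNU5F-1 were its lowest, although percentiles of lists of different length show no change in level. RNU5D-1 and RNU5F-1 lie close together, and in the second YTHDF1-KO anti-ARID1A list they stood at the same percentile, 97.7.

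The U6 genes, read by RNA polymerase III, had some of the strongest anti-ARID1A peaks. RNU6-2 stood at 81.6 to 99.6 there (median 99.1) and RNU6-1 at 88.5 to 97.2 (median 94.6). With anti-YTHDF1 RNU6-2 stood at 15.5 to 55.2 in 4 lists (median 43.5), and RNU6-1 at 79.8 to 86.5 in 3 (median 82.3). RNU6-7 and RNU6-8, whose windows overlap, were in 4 and 3 anti-YTHDF1 lists, and RNU6-9 was in 2. No U6 gene was in the second WT anti-YTHDF1 list, and 5 of 5 were in the first siARID1A list, so calls of U6 with anti-YTHDF1 ran from none of the genes to all of them. RNU6-9 lies 297 bp from an end of MED16 and RNU6-2 399 bp from an end of TMEM259.

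The minor spliceosome genes were each in all 6 anti-ARID1A lists. RNU12 stood at 93.1 to 98.1 (median 94.3), RNU4ATAC at 88.9 to 94.0 (median 91.0), RNU6ATAC at 83.9 to 98.9 (median 86.6) and RNU11 at 62.3 to 85.1 (median 80.3). With anti-YTHDF1 RNU12 was in 5 lists at 22.3 to 89.3 (median 83.1), RNU4ATAC in 5 at 14.7 to 84.3 (median 55.3) and RNU6ATAC in 5 at 69.7 to 87.6 (median 79.8). RNU11 was in 2, at 64.2 in a WT list and 73.2 in a siARID1A list. An end of POLDIP3 lies 361 bp from RNU12 and one of TAF12 331 bp from RNU11. RNU11 had the lowest median of the 4 with anti-ARID1A and was the least often held with anti-YTHDF1.

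RNU7-1 was in all 12 lists, at 95.3 to 98.8 with anti-ARID1A (median 98.2) and 65.1 to 98.4 with anti-YTHDF1 (median 92.5). The highest signal of the peak, however, lay 1997 bp from the gene at the median, and an end of C12orf57 lies 383 bp away. RN7SK (chromosome 6, 52995620 to 52995951) was in all 6 anti-ARID1A lists at 83.8 to 91.5 (median 89.1), and its peak was highest 379.5 bp from the gene's centre at the median, with an end of GSTA4 336 bp from the gene. It was in 5 anti-YTHDF1 lists at 26.5 to 68.0 (median 61.2). RN7SK, RNU4ATAC and RNU6ATAC were each missing from a single list, that of the second anti-YTHDF1 library of YTHDF1-KO cells, while the first held all 3.

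**Figure D1:**
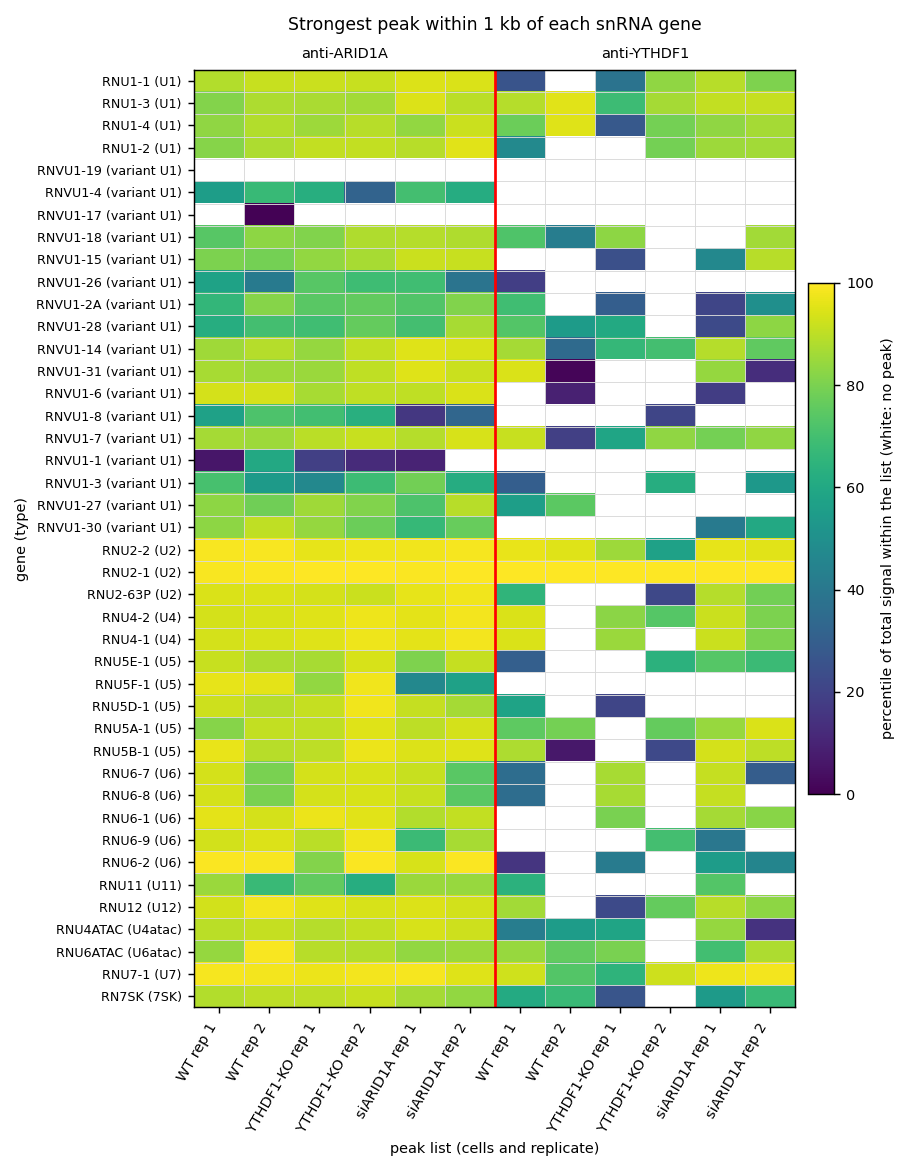
Percentile by total signal within each list of the strongest peak within 1 kb of the 42 genes of a U type and 7SK (rows), for 6 anti-ARID1A lists (left of the red line) and 6 anti-YTHDF1 lists (right); white means no peak. In the left block 39 of 42 genes are in all 6 lists, and in the right block 7 are.

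The snaR genes make small RNAs that bind the protein NF90 and are transcribed by RNA polymerase III. Of 28 members, 26 lie on chromosome 19 between 46830585 and 50605085, mostly in arrays of near-identical copies of 119 to 128 bp. With anti-ARID1A 25 of the 28 were in all 6 lists, and with anti-YTHDF1 24. SNAR-A13 stood at 99.1 to 99.98 with anti-ARID1A (median 99.8) and at 99.6 to 99.9 with anti-YTHDF1 (median 99.8). The fewest calls were at single members outside the arrays. SNAR-E was in 6 anti-ARID1A and 2 anti-YTHDF1 lists, and SNAR-F in 5 and 1. SNAR-I on chromosome 3 was in 2 and 0, and SNAR-H on chromosome 2 in none. SNAR-G1 and SNAR-G2, also apart from the longer arrays, were in 6 and 6 each. They lie 125 bp and 103 bp from ends of CGB1 and CGB2, so a peak of the neighbour cannot be told apart there. Median peak widths in the arrays reached 16734 bp, so single copies cannot be told apart there.

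Most untyped members had no peak. Of 79, spread over 21 chromosomes and 60 to 197 bp long, 42 (53.2%) were in no list. The share was 54.0% of other genes no longer than the longest member, called other short genes, and 30.9% of all genes. In all 12 lists were 14 (17.7%), beside 3.78% of other short genes and 16.2% of all genes. Of those 14, 13 are the genes beside RNU2-1 described above. Away from RNU2-1 there were 66, of which 6 were in all 6 anti-ARID1A lists and 1, LOC124900516 on chromosome 2, was in all 12. Of other short genes 13.3% were in all 6 anti-ARID1A lists. LOC124900516 lies 547 bp from an end of ACTR1B. LOC124904613 and LOC124904634, close together on chromosome 1 at 146376807 and 146409903, were in 6 anti-ARID1A lists each and in 4 and 5 with anti-YTHDF1. These 3 genes were singled out after their values were seen.

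**Figure D2:**
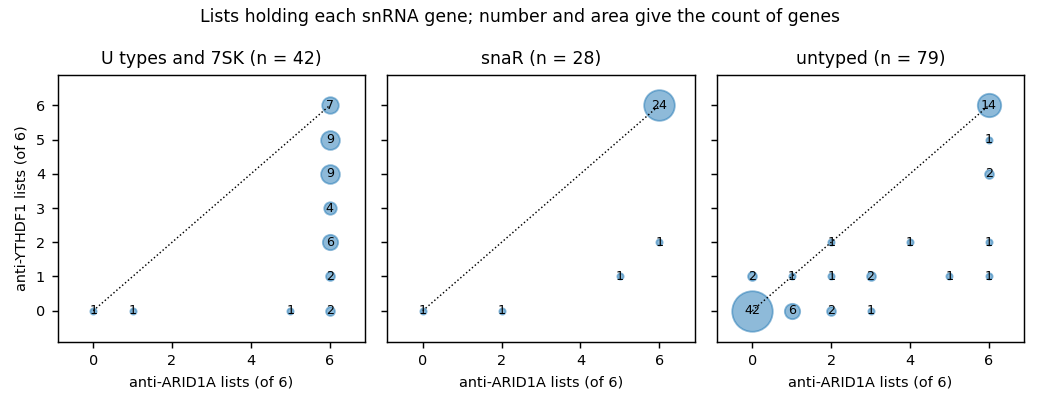
Number of snRNA genes by how many of the 6 anti-ARID1A lists (horizontal) and of the 6 anti-YTHDF1 lists (vertical) held them, with the count of genes in each circle and the dotted line where both are equal. U types and 7SK stack at 6 anti-ARID1A lists over all anti-YTHDF1 counts, 24 of 28 snaR genes sit at 6 and 6, and 42 of 79 untyped genes sit at 0 and 0.

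The antibodies were then compared over 6 lists each. The 42 U type and 7SK genes were held almost completely by anti-ARID1A lists and in part by anti-YTHDF1 lists. By list 92.9% to 97.6% of them were held with anti-ARID1A (95.2 ± 1.5%, mean ± SD, n = 6) and 40.5% to 73.8% with anti-YTHDF1 (59.1 ± 15.2%, n = 6). The ranges did not overlap. In the same order 93.5 ± 1.5% and 87.5 ± 3.0% of snaR genes were held, and 31.0 ± 4.0% and 23.4 ± 1.9% of untyped members (n = 6 each). Among all genes of the table the shares were 49.2 ± 4.1% and 34.6 ± 2.9%, and among 8527 other genes no longer than the longest member (332 bp) 24.8 ± 4.4% and 13.2 ± 2.0% (n = 6 each). Genome tiles of 2120 bp gave 11.7 ± 2.9% and 5.4 ± 0.9%. Transfer RNA genes, which are short and read by RNA polymerase III, gave 68.4 ± 4.2% and 38.3 ± 6.0%, below the U types and 7SK with either antibody. Neither did the ranges of the antibodies overlap among all genes (42.9% to 52.8% and 31.0% to 37.9%). The same held for other short genes (18.4% to 29.1% and 10.9% to 15.3%), transfer RNA genes and tiles.

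Of the U types and 7SK, 39 were in all 6 anti-ARID1A lists and 7 in all 6 anti-YTHDF1 lists. Of the 41 held by any list, 34 (82.9%) were in more anti-ARID1A lists and 0 in more anti-YTHDF1 lists. Of the 40355 genes of the table held by any list 24185 (59.9%) and 4446 were, and of other short genes 71.7% and 13.6%. Over all 149 members 83 were in all 6 anti-ARID1A lists, 55.7%, beside 36.3% of all genes and 13.3% of the other short genes. In all 6 anti-YTHDF1 lists were 45 members, 30.2%, beside 16.7% and 3.87%. The same 45 were in all 12 lists, against 16.2% of all genes and 3.78% of the other short genes. An end of a protein-coding gene lies within 1 kb of 8 of the 42, and of the other 34 there were 31 in all 6 anti-ARID1A lists and 5 in all 6 anti-YTHDF1 lists. Both counts away from such ends followed the same order.

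Anti-ARID1A lists were longer, and so list length moved with the antibody. With every list cut to its 40562 strongest peaks the U types and 7SK stood at 90.1 ± 0.97% with anti-ARID1A and 56.0 ± 11.9% with anti-YTHDF1 (n = 6 each), with ranges of 88.1% to 90.5% and 40.5% to 66.7%. All genes then stood at 37.1 ± 1.7% and 30.5 ± 0.67%. Of the 40 then held by any list 33 (82.5%) were in more anti-ARID1A lists and 0 in more anti-YTHDF1 lists. Among all genes so held the shares were 46.2% and 24.1%, and among other short genes 57.3% and 25.0%. At equal length 35 of the 42 were in all 6 anti-ARID1A lists and 7 in all 6 anti-YTHDF1 lists. At single genes no difference passed. By Fisher's exact test of each gene, two-sided, with Benjamini-Hochberg adjustment, 0 of 105 members tested were held more often with either antibody (0% of all 40355 genes tested). The smallest p that 6 lists against 6 can give passes the adjustment only if 1747 or more genes reach it, and 521 did.

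At an unadjusted p under 0.05, 6 members were held more often with anti-ARID1A, 5.71% of those tested, beside 5.45% of all genes and 6.76% of other short genes. The members' share is near the background. None was held more often with anti-YTHDF1, beside 0.0248% of all genes. RNU5F-1 and RNVU1-4, in 6 of 6 anti-ARID1A and 0 of 6 anti-YTHDF1 lists, had that smallest p (exact p = 0.00216, adjusted p = 0.168). RNVU1-26, RNVU1-8 and the untyped LOC124904631, in 6 and 1, and RNVU1-1, in 5 and 0, followed (exact p = 0.0152, adjusted p = 0.277). With lists of equal length RNU5F-1 was still in 6 and 0, while RNVU1-4 was in 4 and 0 and RNVU1-1 in 1 and 0.

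**Figure D3:**
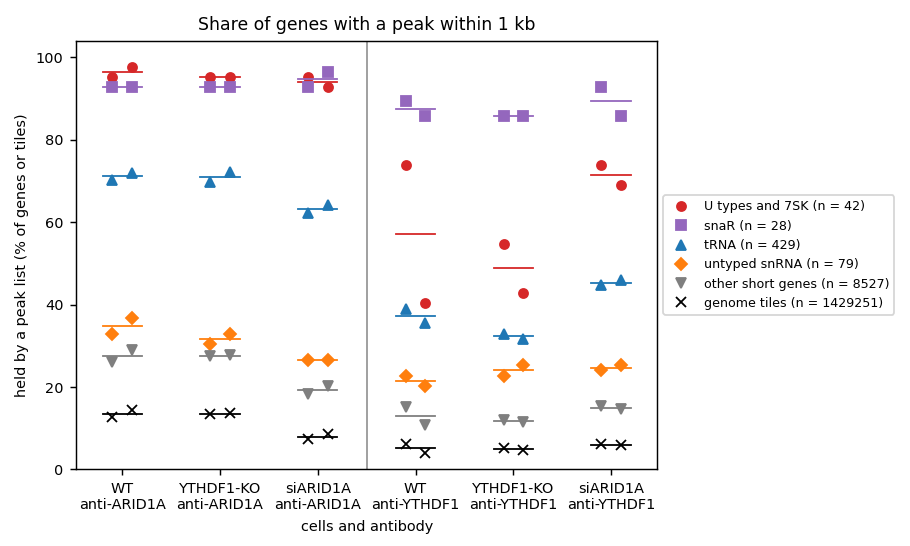
Share of genes with a peak within 1 kb in each list (points, 2 per cell condition and antibody) and the mean of each pair (lines), for 3 groups of snRNA genes, transfer RNA genes, other short genes and genome tiles. Red points for U types and 7SK lie between 92.9% and 97.6% with anti-ARID1A and between 40.5% and 73.8% with anti-YTHDF1, above the tiles in every list.

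The place of the highest signal was then measured from each gene's centre. At U types and 7SK it lay within 500 bp in 73.8 ± 6.2% of calls with anti-ARID1A and 57.5 ± 11.8% with anti-YTHDF1 (mean ± SD over 6 lists). Other short genes gave 29.6 ± 4.6% and 36.2 ± 2.1%, and transfer RNA genes 48.5 ± 5.5% and 46.8 ± 2.3%. The median distance was 318 bp over 240 calls of the U types and 7SK with anti-ARID1A and 372 bp over 149 calls with anti-YTHDF1. For other short genes it was 942 bp and 739 bp. By list the share within 500 bp ran from 65% to 80% (anti-ARID1A) and 44.4% to 71.0% (anti-YTHDF1) at U types and 7SK, and from 25.4% to 37.0% and 33.2% to 39.6% at other short genes, and these ranges did not overlap for either antibody. RNU6-2 was among the nearest (63.5 bp at the median), as were RNVU1-31 (118.5 bp), RNU5D-1 (126 bp) and RNVU1-4 (127.5 bp). In the snaR arrays 19.7% and 35.5% of calls lay within 500 bp, where single wide peaks cover several copies.

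**Figure D4:**
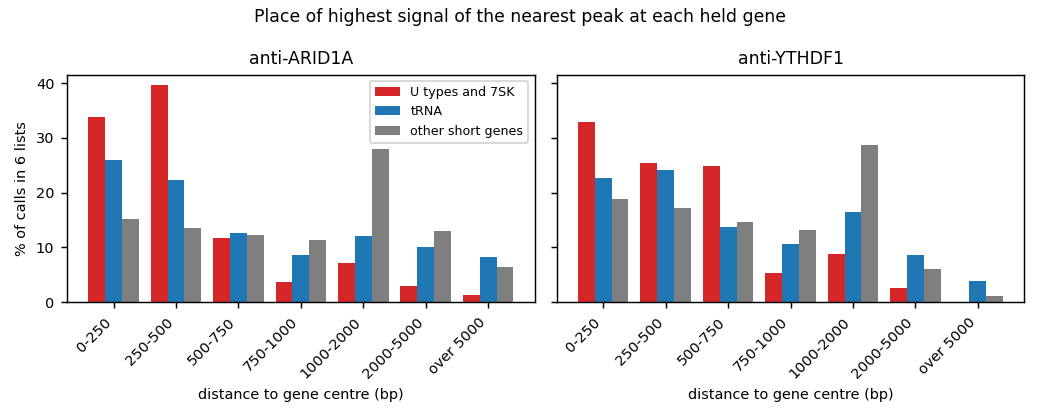
Share of calls by the distance in bp from the gene's centre to the place of highest signal of its nearest peak, pooled over 6 lists for each antibody, for U types and 7SK, transfer RNA genes and other short genes; bins widen to the right. Of the calls at U types and 7SK 33.8% and 39.6% lie in the first and the second bin with anti-ARID1A, against 15.3% and 13.6% for other short genes.

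YTHDF1-KO and WT cells were compared in the anti-YTHDF1 lists, to see which snRNA genes carried a peak in cells made to lack the protein. Both WT lists held 55 of the 149 members, beside 14583 of all 58419 genes. Both YTHDF1-KO lists held 50 members, and 45 were in all 4. By list the U types and 7SK stood at 73.8% and 40.5% in WT and at 54.8% and 42.9% in YTHDF1-KO, so the knockout values lay between those of WT. All genes stood at 36.5% and 31.0% in WT and at 33.6% and 31.8% in YTHDF1-KO. The WT lists differed from one another at 21 members and the YTHDF1-KO lists at 27. These lists differ in length. At equal length the U types and 7SK stood at 66.7% and 40.5% in the WT lists and at 54.8% and 42.9% in the YTHDF1-KO lists. The cause of the difference between replicates was not tested.

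Held by both WT and neither YTHDF1-KO list were 3 of the 55 members, 5.45%, beside 7.52% of all genes and 14.9% of other short genes. They were RNVU1-31 (94.5 and 1.39 percentiles in WT), RNVU1-27 (56.0 and 74.8) and the untyped LOC124902335 on chromosome 9 (80.4 and 80.6). In the opposite direction there were 0 of 73, beside 2.41% of all genes and 0.716% of other short genes. An exact permutation test of 2 lists against 2 cannot go below p = 0.333, so no test of a gene was made. The sum of 3 members rose to 9 without the first WT list, 6 without the second, 13 without the first YTHDF1-KO list and 8 without the second, where a single list stands for its condition.

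The same lists were compared between siARID1A and WT cells. Both siARID1A lists held 68 members and 52 were in all 4 lists. The U types and 7SK stood at 73.8% and 69.0% in siARID1A, the first of which equalled the higher WT list. All genes stood at 37.9% and 36.7% in siARID1A, beside 36.5% and 31.0% in WT. Held by both WT and neither siARID1A list were 2 of 55 members, 3.64%, beside 3.9% of all genes and 7.67% of other short genes: RNVU1-27 and LOC124902335. Held by both siARID1A and neither WT list were 4 of 73, 5.48%, beside 3.41% of all genes and 1.4% of other short genes. These were RNU6-1 (86.5 and 82.3 percentiles in siARID1A), RNVU1-15 (46.8 and 89.2), RNVU1-30 (41.2 and 60.3) and the untyped LOC124904122 on chromosome 17 (36.0 and 54.6). RNU6-1 and RNVU1-15 were also in the first YTHDF1-KO list, at 79.8 and 24.6, and RNVU1-30 and LOC124904122 were in neither YTHDF1-KO list. Without the first WT list the sum of 6 members rose to 19, and without the second siARID1A list to 11. Both comparisons use the same WT lists.

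In the anti-ARID1A lists nearly all U type and 7SK genes were held in every condition, which leaves little room for a call to differ. Both lists of WT, YTHDF1-KO and siARID1A cells held 91, 85 and 85 members respectively. Of all 58419 genes both WT lists held 27408. None of the 42 was held by both lists of a changed condition and neither of WT, or the reverse. By list the U types and 7SK stood at 95.2% and 97.6% in WT, 95.2% and 95.2% in YTHDF1-KO, and 95.2% and 92.9% in siARID1A. The siARID1A lists covered less of the genome, and other short genes stood at 18.4% and 20.3% there against 26.0% and 29.1% in WT.

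Only untyped members showed a pattern with anti-ARID1A. Held by both WT and neither YTHDF1-KO list was 1 of 91, LOC124902335 (8.02 and 67.2 percentiles), 1.1% beside 2.52% of all genes and 6.47% of other short genes. In the opposite direction there were 0 of 52, beside 2.65% and 1.41%. Held by both WT and neither siARID1A list were 4 of 91, 4.4%, beside 7.99% of all genes and 18.2% of other short genes. They were LOC124906338 on chromosome 3 (94.4 and 94.5), LOC124905170 (61.4 and 41.9), LOC124906343 (33.8 and 23.5) and LOC124902335. In the opposite direction there was 1 of 52, LOC124903091 on chromosome 12 (17.2 and 26.4), 1.92% beside 0.778% of all genes and 0.296% of other short genes. LOC124902335 was in both WT lists of either antibody and in no list of the other conditions, but the highest signal of its peaks lay 1339 bp away at the median. With the gene alone, or with the highest signal required in the window, all of its patterns ended, and at equal length those with anti-ARID1A ended too. Of the 6 anti-ARID1A patterns 1 remained with the gene alone and 1 at equal length. The sum of 1 member for YTHDF1-KO rose to 5 without the first WT list and to 6 without either YTHDF1-KO list. The sum of 5 for siARID1A rose to 10 without the first WT list and to 8 without the first siARID1A list.

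Genes whose products make and process snRNAs were examined at their own ends, within 1 kb of either end. Of 74 such genes 67 (90.5%) were in all 6 anti-ARID1A lists and 22 (29.7%) in all 6 anti-YTHDF1 lists, beside 56.6% and 19.0% of 19821 protein-coding genes. As at the snRNA genes themselves, more of these genes were in all lists with anti-ARID1A than with anti-YTHDF1. All 10 promoter factor genes were in all 6 anti-ARID1A lists, and SNAPC2 and SNAPC4 of the SNAP complex and ZNF143, an activator of snRNA promoters, were in all 12. POU2F1, the octamer factor, was in 2 anti-YTHDF1 lists and BRF2, a TFIIIB subunit for U6 promoters, in 1. Of 9 genes for RNA polymerase III subunits 8 were in all 6 anti-ARID1A lists and 2, POLR3D and POLR3E, in all 12.

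Of 19 genes for Integrator, which cleaves snRNA transcripts, and for the little elongation complex, 18 were in all 6 anti-ARID1A lists and 6 in all 6 anti-YTHDF1 lists. INTS11, the cleaving subunit, was in all 12, whereas INTS15 was in 6 anti-ARID1A lists and 0 anti-YTHDF1 lists, and INTS12 in 3 and 0. Among 15 export and assembly genes 12 were in all 6 anti-ARID1A lists and 4 in all 6 anti-YTHDF1 lists. NCBP1 of the cap-binding complex and the export receptor XPO1 were in all 12. SMN1, which has a near-identical copy and is uncertain, was in 1 anti-ARID1A list. Of 14 Sm and snRNP protein genes 12 and 5 were in all 6 lists, SNRNP70 of the U1 particle and LSM10 of the U7 particle among those in all 12. All 7 genes for the 7SK particle and RNA modification were in all 6 anti-ARID1A lists, and MEPCE, which caps 7SK, and HEXIM1 were in all 12. METTL4, which methylates U2, was in no anti-YTHDF1 list.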

How the data were processed

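CUT&Tag peak lists of 12 libraries were used. SEACR 1.3 and Bowtie2 2.4.2, besides deepTools 3.5.2, bedtools 2.30.0, fastp 0.23.2 and SAMtools 1.9, are the tools and hg38 the build per the submitters' processing notes. Settings, the use of IgG and the treatment of reads with several matches are not stated there. The deposited lists give each peak's total and highest signal as the authors' coverage, on a scale of each library's own. It was used only to rank peaks within a list.

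Groups and replicate numbers came from the sample titles. Peaks on chromosomes 1 to 22 and X were overlapped (1 bp or more) with RefSeq GRCh38.p14 genes widened by 1 kb. The table gives no strand. Its positions after a fall in order of over 1 Mb were taken to lie on other sequences, which set aside 5 members. Genes held by at least 1 list (40355) entered a two-sided Fisher's exact test, adjusted by the Benjamini-Hochberg method with a threshold of 0.05. The code of the test was run on simulated data in which a large share of genes differed strongly. That setting is unlike these lists, so it says nothing of the power of the test here. Python 3.11.15, numpy 2.4.6, pandas 2.3.3 and scipy 1.17.1 were used.

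Named genes were all U type and 7SK genes (symbols ending in P left out), the members of a condition pattern, those past the antibody test, and the 10 of highest mean percentile among those in all 12 lists. The members, lists and rules were chosen with earlier results of these data known. Motifs were planned for the members' own promoters, which the promoter table did not give. Windows of genes neighbouring the U types and 7SK were searched instead. Alternatives were other windows, stricter lists, lists of equal length, the highest signal in the window, overlapping members counted once, members near protein-coding ends left out, other tests and each library left out.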

Additional observations from a re-analysis of the deposited data

How the results depend on the processing

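Of 196 alternative values 28 moved by more than the SD over libraries, or by over 1.5 times for a count. Of the other 168, 44 are counts of the antibody test, which stayed at 0. The wide SD of U types and 7SK with anti-YTHDF1 took in 48.4% with the gene alone and 44.4% among peaks above the median signal. With the gene alone (0 kb) snRNA genes stood at 56.0% with anti-ARID1A and 39.0% with anti-YTHDF1, U types and 7SK at 92.5% with anti-ARID1A, and 2 members differed between WT and siARID1A with anti-ARID1A. With 3 kb windows the first share was 63.6%, and 2 members differed between WT and YTHDF1-KO with anti-ARID1A. With only the peaks above the median total signal of each list these shares were 56.9%, 39.7% and 90.5%. At equal length they were 56.7% and 90.1% with anti-ARID1A, with 3 members for siARID1A. With the highest signal required in the window they were 40.9%, 32.8% and 84.9%, with 2 members for YTHDF1-KO with anti-ARID1A. Without members near protein-coding ends 57.7% of snRNA genes were held with anti-ARID1A. The cause of these moves was not tested, beyond fewer peaks or other windows by construction.

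Without single libraries the shares ranged from 60.1% to 61.3% and 44.4% to 47.0% for snRNA genes, and from 94.8% to 95.7% and 56.2% to 62.9% for U types and 7SK (anti-ARID1A, anti-YTHDF1). Members differing from WT ranged from 1 to 6 and 3 to 13 for YTHDF1-KO, and from 5 to 10 and 6 to 19 for siARID1A. The antibody test (Fisher's exact test) called 0 members in every alternative (lowest adjusted p = 0.0802 among peaks above the median signal), which says nothing of stability, since the smallest p it allows hardly passes. With the replicate number as a block, an exact sign test over 6 pairs called 0 (lowest adjusted p = 0.980). The smallest p this sign test can give is 0.03125 before adjustment, so its 0 says nothing of stability either. Correlations computed between groups to look for pairing by replicate number lay between -0.00569 and 0.00369. They do not measure how alike the lists are, since 85 members were in both anti-ARID1A lists of both WT and YTHDF1-KO. With 2 libraries per group they cannot decide whether a number marks a shared culture. Of the 15 condition patterns 6 remained with 0 kb, 13 with 3 kb, 7 with the highest signal in the window, 10 at equal length and 6 among peaks above the median signal. In that order 1, 4, 1, 1 and 1 of the 6 anti-ARID1A patterns and 5, 9, 6, 9 and 5 of the 9 anti-YTHDF1 patterns remained. LOC124903091 was lost in every one of these settings, and LOC124906343 in all but 3 kb. LOC124902335 and RNVU1-27 were lost with 0 kb, and LOC124902335 and RNU6-1 with the highest signal required. LOC124906338 was lost with 0 kb, 3 kb and the highest signal required. RNVU1-31, RNVU1-15, RNVU1-30 and LOC124904122 were lost among peaks above the median signal. LOC124905170 and the anti-ARID1A patterns of LOC124902335 were lost there and at equal length. The unknown depth limits every absent call.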
